A study of Mus musculus with 5 samples.

Results

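Reticular cells of the femur marrow were compared between a library of mice whose marrow had been ablated 2 times, called exhausted by the submitters, and a library of uninjured control mice. A cell was taken as reticular when it had at least 500 genes, at least 1000 unique molecular identifiers (UMIs, each standing for 1 captured transcript), a mitochondrial share under 25%, no UMI of the leukocyte gene Ptprc and at least 150 UMIs of Cxcl12 per 10000. This took 5664 cells of control and 1906 of exhausted, 7570 cells of the 57968 in the 5 libraries of the series. The rule used Cxcl12 and Ptprc, so their levels are not results here, and with 1 library a side every interval below covers counting error only.

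Cxcl12-abundant reticular cells are branched stromal cells that wrap the marrow sinusoids. They secrete CXCL12 and stem cell factor (Kitl), which hold blood stem and progenitor cells in the marrow, and they are the main adult marrow cells marked by the leptin receptor, Lepr. They express genes of the fat and bone lineages at rest and can form bone cells and marrow fat. Marrow ablation empties the cavity of a long bone, which first fills with bone that is then resorbed as marrow returns.

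All mice carried Lepr-cre with R26R-tdTomato, so a cell that has ever had Lepr-driven Cre, and its descendants, carry the red reporter. Cells were taken from femurs without the distal growth plate and the proximal end, and sorted for tdTomato. Control was uninjured and 15 weeks old, and exhausted was 15 weeks old with surgeries at 9 and 13 weeks. Naive was 15 weeks old with 1 surgery, at 13 weeks, so naive and exhausted were both sampled 2 weeks after the last surgery. Aged was uninjured at 18 months, and aged-injury was ablated 1 week before sampling at 18 months. The labels give neither the number or sex of animals per library nor a batch, so animal, surgery and library preparation cannot be told apart from the treatment.

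Reticular cells gave 54165744 UMIs in control, 19113528 in naive and 16640384 in exhausted, with medians of 9002, 8721 and 7843 UMIs, 2877.5, 2944.5 and 2735.5 genes and mitochondrial shares of 6.04%, 6.67% and 6.62% per cell. They were 61.2% (60.2 to 62.2) of cells passing the filters in control, 37.3% in naive and 30.4% (29.2 to 31.5) in exhausted. Ptprc-positive cells were 19% of control and 43.3% of exhausted cells, and of the cells without Ptprc 75.6% and 53.6% were reticular. The number of reticular cells in the bone was not measured, since the sort and the cells lost before it set these shares. Cxcl12 had a median of 384 UMIs per 10000 in control members, 283 in naive and 362 in exhausted. Just inside the limit, from 150 to 165, lay 64 control and 48 exhausted cells, and just outside, from 135 to 150, lay 63 and 53. Control and exhausted shared 1 cell barcode.

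Markers that the rule did not use were read to check the label, in CPM, a gene's UMIs summed over the cells of a library and scaled to a total of 1000000. After thinning to 2000 UMIs Lepr had a UMI in 99.2% (98.9 to 99.4) of control cells and 97.1% (96.2 to 97.8) of exhausted cells, and in 99.9% and 99.1% without thinning, against 27.5% and 8.95% of thinned Ptprc-positive cells. The other reticular markers Kitl, Adipoq, Foxc1, Ebf3, Pdgfra and Il7 were each higher in reticular than in Ptprc-positive cells of both libraries, for Adipoq at 3771 and 4920 CPM in control and exhausted against 492 and 271 CPM. The reporter tdTomato stood at 90.4 CPM in control, 75.7 in naive and 69.3 in exhausted. Markers of other cells were read in the same cells. The 8 neutrophil genes summed to 241 CPM in control and 196 in exhausted reticular cells, against 65574 and 47989 in Ptprc-positive cells. Erythroid genes summed to 3613 and 3513, against 7072 and 6837 in Ptprc-positive cells. The haemoglobin gene Hbb-bs had a UMI in 83.9% and 71.1% of reticular cells of control and exhausted. Leukocyte genes summed to 69.0 and 72.1, against 8974 and 8889 in Ptprc-positive cells. In reticular cells fibroblast genes summed to 13.1 and 15.1, endothelial genes to 26.3 and 15.6, pericyte genes to 497 and 422 and cartilage genes to 74.3 and 81.4. T cell, megakaryocyte and mast cell genes summed to 2.10, 7.03 and 1.38 CPM in control and 2.94, 7.45 and 1.80 in exhausted, with 1, 1 and 2 of their genes at 0 in exhausted. Macrophage genes (1432 and 1228) were mostly Vcam1 and B cell genes (1063 and 963) mostly Ebf1, both genes of reticular cells themselves. The macrophage sum thus followed Vcam1, at 1413 and 1192 CPM. Of its other genes, C1qb had 1.96 and 5.95 CPM, C1qc 2.09 and 8.89 and Cd68 9.18 and 10.5 in control and exhausted. In Ptprc-positive cells C1qb stood at 191 and 708 CPM and C1qc at 256 and 1083. The adipocyte list summed to 112 in control, 475 in naive and 258 in exhausted, most of it Fabp4 and Car3. Its gene Pck1 was at 0 in control and exhausted. The osteoblast list summed to 4801, 3139 and 3105, most of it Ibsp. Apart from the alternatives given below, the part of these other cells in the results was not tested.

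Most genes of reticular cells stood within 1.5-fold of control in the exhausted library. A gene was measured when it reached 5 CPM in either library. Of 10299 measured genes, 151 (1.47%) were at least 2-fold higher in exhausted and 144 (1.4%) at least 2-fold lower. At 1.5-fold the numbers were 383 (3.72%) and 415 (4.03%). The median log2 ratio was 0.05, and the middle 50% of genes lay between -0.11 and 0.20. Abundant genes stood on both sides and between: Igfbp5 had a log2 ratio of -0.63, Lepr -0.79, Igfbp4 0.88, Kitl -0.18 and Adipoq 0.38.

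**Figure D1:**
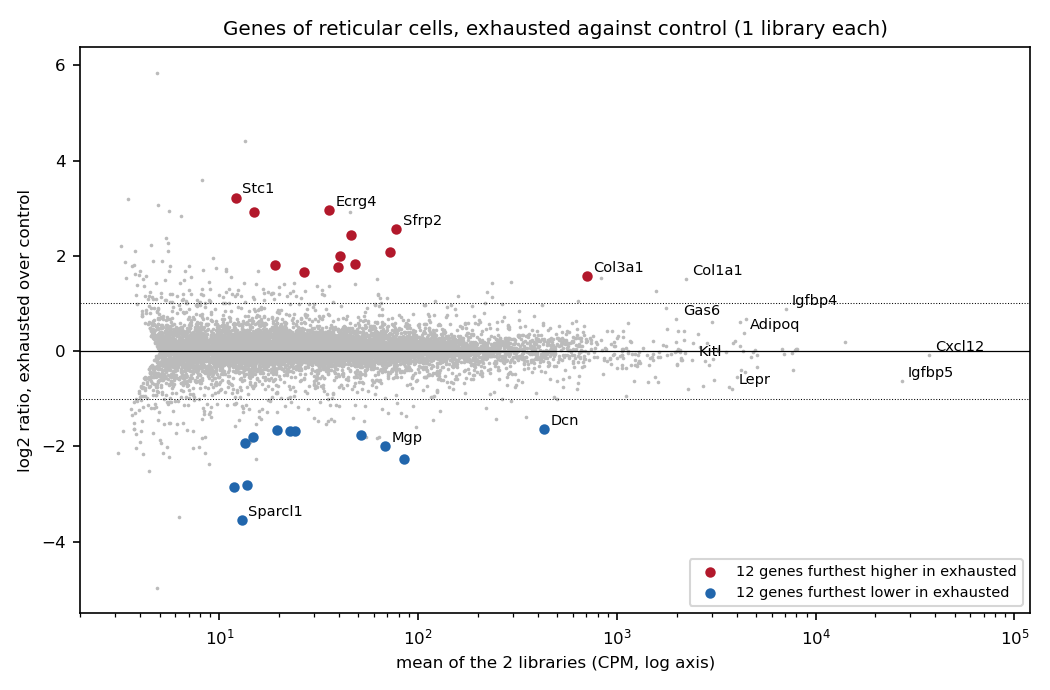
Each point is a measured gene; the horizontal axis is the mean CPM of the control and exhausted libraries (log axis) and the vertical axis the log2 ratio of exhausted over control. Dotted lines mark 2-fold; red and blue points are the 12 genes furthest higher and lower by the naming rule, and Cxcl12 was used to choose the cells.

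Sfrp2, Ecrg4 and Stc1 were among the 12 genes furthest higher. Sfrp2, a secreted modulator of WNT signalling, had 22.6 CPM in control and 133 in exhausted, with 147 in naive, 48.8 in the uninjured aged library and 136 in aged-injury. It was 5.88-fold higher (5.48 to 6.30) in exhausted than in control, where the interval in brackets, here and below, is the 95% counting interval and covers neither cells nor animals. Every injured library was above both uninjured ones. Ecrg4, which encodes a secreted peptide precursor, had 8.14 CPM in control and 63.2 in exhausted, with 63.9 in naive, 16.7 in the uninjured aged library and 42.2 in aged-injury, 7.76-fold higher (6.94 to 8.70) in exhausted. Stc1, the secreted glycoprotein stanniocalcin, had 2.34 CPM in control, 28.0 in naive and 21.9 in exhausted, 9.36-fold higher (7.62 to 11.5) in exhausted. Uninjured aged mice had 12.8 CPM, above young control.

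Col3a1, Npnt, Col8a2 and Comp, which encode matrix proteins, were also among them. Col3a1, the collagen of soft and early repair tissue, had 356 CPM in control and 1064 in exhausted, with 875 in naive, 193 in the uninjured aged library and 1217 in aged-injury, 2.99-fold higher (2.93 to 3.05) in exhausted. Npnt, an integrin ligand of basement membranes, stood at 27.6 CPM in control, 181 in naive and 116 in exhausted and was 4.21-fold higher (3.94 to 4.51). Col8a2, a short-chain collagen, was 7.57-fold higher (6.36 to 9.03) at 3.47, 40.7 and 26.3 CPM in control, naive and exhausted, with a log2 ratio of 2.92 that stood at 2.26, 3.58 and 1.30 in cells of 150 to 300, 300 to 400 and over 400 Cxcl12 UMIs per 10000. Comp, a cartilage and tendon matrix protein that binds collagens, was 5.42-fold higher (4.95 to 5.93) at 14.4, 43.9 and 77.8 CPM, with its highest level in exhausted. Adamts12, a secreted metalloprotease, was 3.40-fold higher (3.11 to 3.72), and Olfm2, a secreted olfactomedin, 3.16-fold higher (2.83 to 3.51). Rbp4, the carrier of retinol, was 3.97-fold higher (3.63 to 4.35), and Cldn10, a tight junction protein, 3.49-fold higher (3.07 to 3.97).

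The long noncoding RNA H19 also met the rule, at 21.2, 29.8 and 75.1 CPM in control, naive and exhausted. Its UMIs came from few cells: the 1% of cells with most held 98.2% and 96.6% of them in control and exhausted. The counting interval of H19 takes no account of this. Col8a2 and Stc1 also came from few cells in control, where that 1% held 95.2% and 92.9%, with 59.7% and 41.1% in exhausted. Each gene had any UMI in only 1.17% of control cells, so its control share was nearly fixed in advance. In exhausted 5.77% and 8.6% of cells had any, so these shares cannot tell a difference in concentration from one in detection. For Comp the 1% of cells with most held 49.5%, 31.9% and 51.0% of UMIs in control, naive and exhausted, which its counting intervals do not cover either. For Sfrp2 the shares were 28.7% and 21.8% in control and exhausted and for Col3a1 11.8% and 9.11%, so Sfrp2 and Col3a1 were spread over more cells.

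Dcn, Sparcl1 and Mgp were among the 12 genes furthest lower. Dcn encodes decorin, a small proteoglycan that binds collagen fibrils. It had 654 CPM in control and 210.0 in exhausted, with 104 in naive, 829 in the uninjured aged library and 520.0 in aged-injury, 3.12-fold lower (3.01 to 3.23) in exhausted. Aged-injury lay below control but above both young injured libraries. Sparcl1, a matricellular protein related to SPARC, had 23.9 CPM in control and 2.04 in exhausted, with 4.08 in naive, 47.8 in the uninjured aged library and 13.9 in aged-injury and was 11.7-fold lower (8.34 to 17.0). Mgp, an inhibitor of calcification, had 109 CPM in control and 27.4 in exhausted, with 50.02 in naive, 221 in the uninjured aged library and 219 in aged-injury, 3.98-fold lower (3.62 to 4.39), lowest in exhausted of the 5 libraries. Both 18-month libraries were above young control for Mgp, injured or not.

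The others of these 12 were as follows. C1qtnf2 and C1qtnf7, secreted relatives of complement C1q, were 7.04-fold lower (5.40 to 9.35) and 3.19-fold lower (2.75 to 3.72). Shisa3, a transmembrane adaptor, stood at 20.7 CPM in control, 2.04 in naive and 2.88 in exhausted. Apod, a lipid-binding lipocalin, was 3.41-fold lower (3.07 to 3.79), and Ces1g, a carboxylesterase, 3.47-fold lower (2.85 to 4.26). The muscle-type filament gene Des was 3.83-fold lower (3.10 to 4.78). Rarb, a retinoic acid receptor, had 29.8, 7.48 and 9.43 CPM in control, naive and exhausted, 3.15-fold lower (2.68 to 3.74), and Gpr50, an orphan receptor, 34.4, 5.91 and 10.8 CPM. By the naming rule 41 genes qualified as higher and 46 as lower, and the 12 furthest of each are these.

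**Figure D2:**
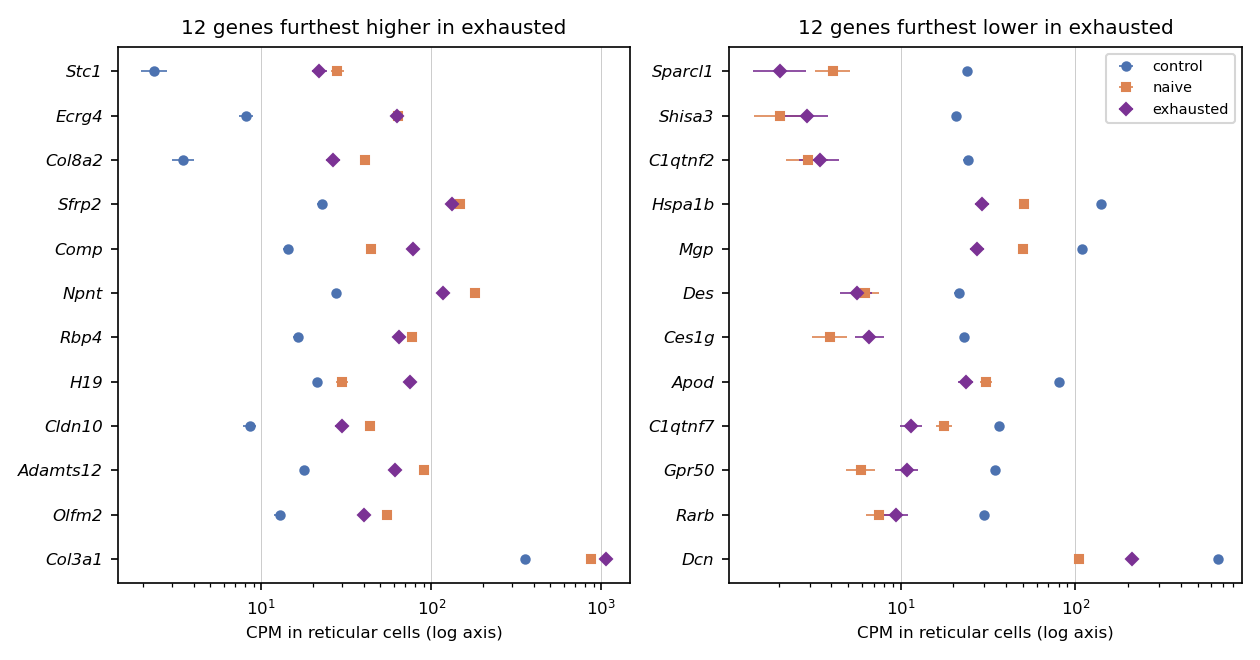
Points are CPM in reticular cells (log axis) of control (circles), naive (squares) and exhausted (diamonds), 1 library each, with 95% Poisson counting intervals. The genes were chosen by their ratio to this same control library, so the place of naive against control is no separate result.

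Lists of pathway and cell type genes were then read. For each list the number of measured members at least 1.5-fold apart is given, to be read beside the 3.72% and 4.03% of all genes, with the median log2 ratio, to be read beside 0.05. The highest median of the 28 lists was that of fibrillar matrix, with 18 of 31 members higher, 2 lower and a median of 0.61. The lowest was that of monocyte and neutrophil chemokines, with 2 of 12 higher, 5 lower and a median of -0.52. Ribosomal protein genes (43, median 0.14) and nuclear oxidative phosphorylation genes (49, median 0.09) had no member past 1.5-fold either way.

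**Figure D3:**
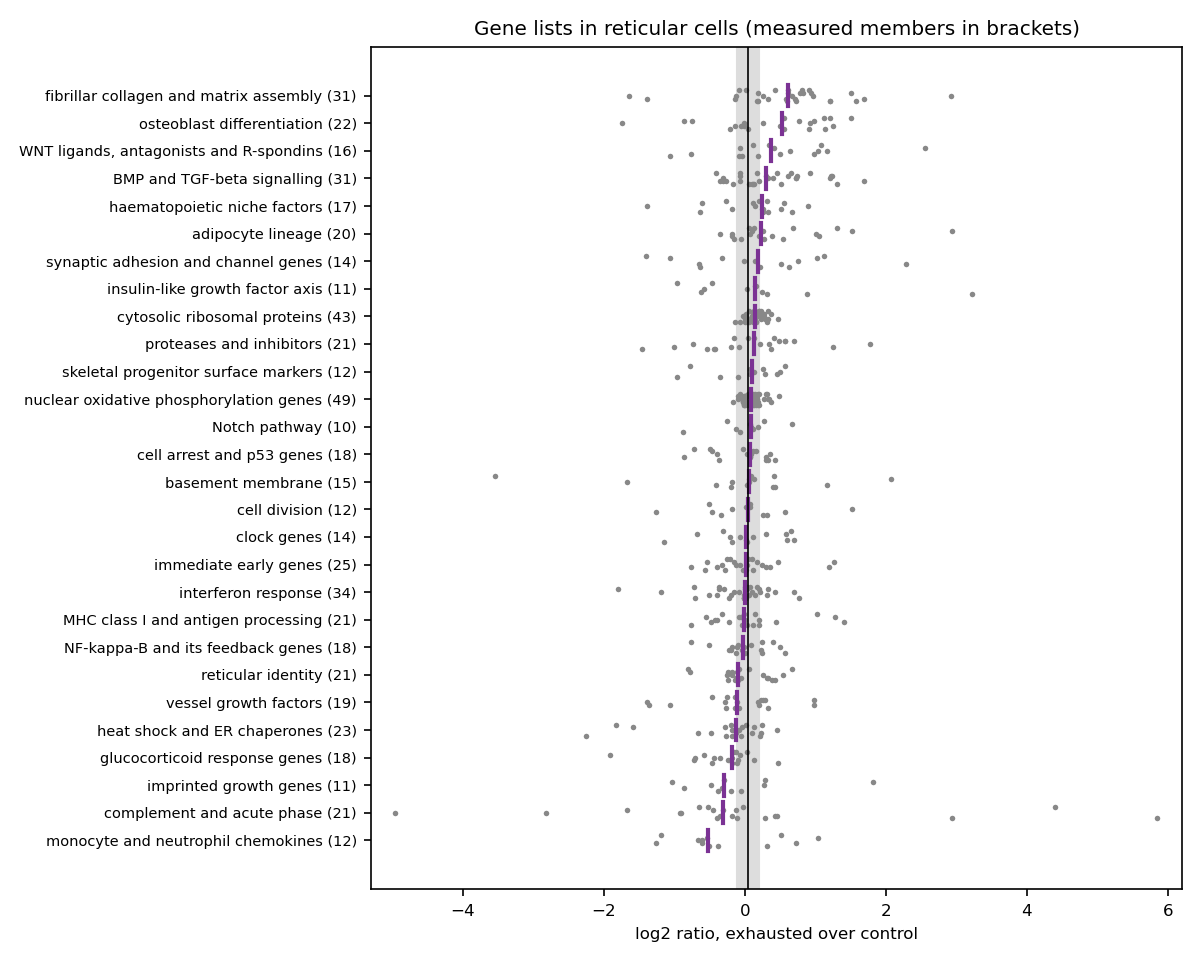
Each row is a gene list, grey points its measured members and the purple bar their median log2 ratio of exhausted over control; the black line and grey band are the median and middle 50% of all measured genes. Matrix and osteoblast lists lie furthest right at 0.61 and 0.52, chemokines furthest left at -0.52.

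Reticular identity genes mostly stood within 1.5-fold of control, with Lepr and Tmem176b lower. Of 21 measured members 1 was higher and 2 lower, with a median of -0.10. Lepr, the leptin receptor whose promoter drives the Cre, had 4806 CPM in control and 2786 in exhausted, with 2479 in naive, 4501 in the uninjured aged library and 2550 in aged-injury. All injured libraries were below both uninjured ones, and exhausted was 1.73-fold lower (1.71 to 1.74). Tmem176b, a membrane protein abundant in these cells, had 2912 CPM in control and 1669 in exhausted, with 1636 in naive, 2443 in the uninjured aged library and 1308 in aged-injury, 1.75-fold lower (1.72 to 1.77). Gas6, the ligand of TAM receptors, was on the other side with 1540 CPM in control, 2387 in naive and 2445 in exhausted, 1.59-fold higher (1.57 to 1.61).

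The transcription factors that set reticular identity stood close to control. Ebf3, needed to keep these cells from turning to bone, had 1257 CPM in control, 1086 in naive and 1209 in exhausted. Foxc1, needed to form them, had 654 CPM in control, 459.7 in naive and 550.4 in exhausted, 1.19-fold lower (1.16 to 1.22). Ebf1 had 1056 and 955 CPM in control and exhausted, and Pdgfra and Pdgfrb, growth factor receptors of mesenchymal cells, 427 and 400.2 CPM and 418 and 383 CPM. Cebpa, a factor of the fat lineage, was 1.46-fold higher (1.42 to 1.49). Of 12 surface markers used for skeletal progenitors none was higher and 2 were lower, Lepr and Cd200 (153 and 78.2 CPM), with a median of 0.10.

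Factors for blood cells stood on both sides of control. Kitl, the stem cell factor, had 2545 CPM in control and 2241 in exhausted, with 2295 in naive, 2626 in the uninjured aged library and 2279 in aged-injury, and exhausted was 1.14-fold lower (1.12 to 1.15). Its difference was thus far below 1.5-fold. Ptn, pleiotrophin, a secreted regulator of stem cells and vessels, had 508 CPM in control and 194 in exhausted, with 163 in naive, 281 in the uninjured aged library and 205 in aged-injury and was 2.62-fold lower (2.53 to 2.72). Cxcl14 was 1.53-fold lower (1.51 to 1.54) at 3714, 2384 and 2430 CPM in control, naive and exhausted, and Tslp, a lymphoid cytokine, 1.56-fold lower (1.31 to 1.88). Il15, which supports natural killer cells, was 1.85-fold higher (1.69 to 2.03), highest in exhausted with 24.1, 34.1 and 44.6 CPM. Il7, needed for B cell precursors, had 176 and 218 CPM in control and exhausted, Angpt1 368 and 463 CPM, and Csf1, the macrophage growth factor, 891 and 983 CPM. In all 2 of 17 members were higher, 3 lower, and the median was 0.23.

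Collagens and their assembly proteins had the most members higher of all lists. Col1a1, a chain of type I collagen, had 1153 CPM in control and 3279 in exhausted, with 2816 in naive, 799 in the uninjured aged library and 3744 in aged-injury, 2.84-fold higher (2.81 to 2.88) in exhausted. Col1a2, the other chain, was 1.52-fold higher (1.51 to 1.53) at 3322, 4908 and 5052 CPM in control, naive and exhausted. Fn1, fibronectin, had 10.6 CPM in control, 155 in naive and 80.4 in exhausted, 7.60-fold higher (6.89 to 8.4). Ptprc-positive cells of control and exhausted also held Fn1, at 314 and 219.9 CPM. At equal depth Fn1 had a UMI in 1.68% (1.36 to 2.05) of control cells and 10.1% (8.74 to 11.6) of exhausted cells, against 11.4% and 10.7% of Ptprc-positive cells, and in 17.0% (15.4 to 18.8) of naive reticular cells against 11.4%. The share was thus below that of blood cells in control, near it in exhausted and above it in naive. The log2 ratio of Fn1 lay between 2.19 and 3.22 under the 17 alternatives below, among them cells with 0 UMIs of every leukocyte marker. The part of blood cell RNA was not tested otherwise. The difference from control was 2.19, 3.22 and 3.08 on the log2 scale in members of low, middle and high Cxcl12.

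Most other matrix genes were higher by less. Col5a2 and Col5a3, which start thin fibrils, were 1.94-fold higher (1.89 to 1.99) and 1.92-fold higher (1.85 to 2.00). Tnc, tenascin, was 1.88-fold higher (1.86 to 1.91) and Sparc (osteonectin, which binds collagen) 1.60-fold higher (1.58 to 1.61). Postn, periostin, and Fbn2, a microfibril protein of young tissue, were 2.30-fold higher (2.02 to 2.61) and 2.31-fold higher (2.15 to 2.47). Fmod, a proteoglycan of tendon, was 3.22-fold higher (2.59 to 4.0) at 3.18 and 10.2 CPM in control and exhausted. The lower members were both small proteoglycans, Dcn and Lum, the latter at 68.4, 18.0 and 26.0 CPM in control, naive and exhausted. Bgn, of the same family, had 2670 and 3026 CPM in control and exhausted. The crosslinking and folding genes Loxl1, Serpinh1 and P4ha1 had log2 ratios of 0.01, -0.14 and -0.12.

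The matrix difference was spread over the cells. With each cell thinned to 2000 UMIs, which left out 20 control and 102 exhausted cells, the list had a median of 41 UMIs per cell in control, 62 in naive and 56 in exhausted. The control median was exceeded by 77.9% of exhausted cells and the control 90th percentile by 42.2%. Col3a1 had a UMI in 34.9% (33.6 to 36.1) of control cells and 68.6% (66.4 to 70.7) of exhausted cells, and in 58.0% and 85.9% without thinning. In Ptprc-positive cells, which should lack it, the shares were 6.46% and 6.39%. For Dcn the shares were 59.2% (57.9 to 60.5) of control cells and 22.4% (20.5 to 24.4) of exhausted cells, 86.4% and 44.8% without thinning, and 11.1% and 1.84% in Ptprc-positive cells. Sfrp2 was found in 3.44% of control, 18.8% of naive and 17.0% of exhausted cells, against 0.686% and 1.05% of control and exhausted Ptprc-positive cells. Median depths of reticular cells were 9002 and 7843 UMIs, of Ptprc-positive cells 9525 and 8576.5.

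**Figure D4:**
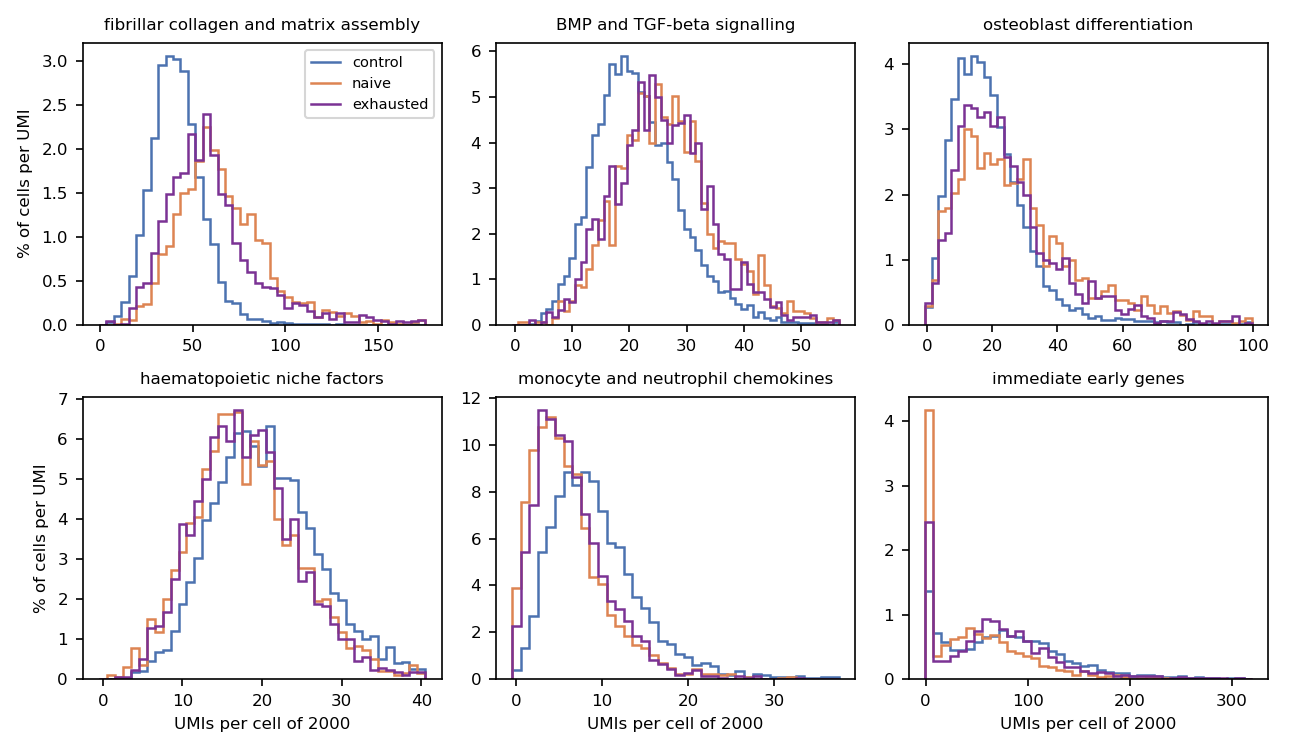
Histograms of the UMIs of 6 gene lists per reticular cell after thinning to 2000 UMIs (horizontal axis), as percent of cells per UMI (vertical axis), in control (5644 cells), naive (1950) and exhausted (1804). The exhausted matrix distribution is shifted to higher values than control as a whole, with medians of 56 and 41.

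More osteoblast genes were higher than lower, and the lower ones are known from mineralised bone. Of 22 measured osteoblast genes 9 were higher and 3 lower, with a median of 0.52. In reticular cells of 150 to 300 Cxcl12 UMIs per 10000 the median was -0.06, so the list's direction depends on that range. Alpl, the phosphatase of mineralising cells, had 147 CPM in control and 323 in exhausted, with 519 in naive, 109 in the uninjured aged library and 179.5 in aged-injury, 2.20-fold higher (2.13 to 2.28) in exhausted. Mmp13, the collagenase of bone and cartilage remodelling, had 930.5 CPM in control and 2220 in exhausted, with 3143 in naive, 721 in the uninjured aged library and 2352 in aged-injury and was 2.39-fold higher (2.35 to 2.42). Sp7, a transcription factor of osteoblast commitment, was 1.70-fold higher (1.53 to 1.88) at 20.4 and 34.6 CPM, while Runx2, which acts before it, had 474 and 469.9 CPM. Kcnk2, a potassium channel, was 2.18-fold higher (2.04 to 2.33).

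The 3 osteoblast genes at least 1.5-fold lower were Ibsp, Phex and Dmp1. By any amount, 8 of the 22 measured stood below control. Ibsp, bone sialoprotein, had 4617 CPM in control and 2736 in exhausted, with 2550 in naive, 5078 in the uninjured aged library and 1814 in aged-injury, 1.69-fold lower (1.67 to 1.70). Phex, a peptidase of phosphate balance, was 1.82-fold lower (1.75 to 1.90) at 313, 146 and 171 CPM in control, naive and exhausted. Dmp1, a gene of osteocytes, was 3.35-fold lower (2.29 to 5.08) from low levels of 5.83 and 1.74 CPM in control and exhausted. Spp1, osteopontin, had 102 CPM in control, 279.6 in naive and 149.7 in exhausted, but a log2 ratio of -0.08 in cells of 150 to 300 Cxcl12 UMIs per 10000.

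The abundant fat-lineage genes of reticular cells stood near control, and 6 other genes of the lineage were higher. Of 20 measured genes 6 were higher, none lower, and the median was 0.23. Adipoq, adiponectin, had 3771 CPM in control and 4920 in exhausted, with 4680 in naive, 4063 in the uninjured aged library and 4177 in aged-injury, and Lpl, lipoprotein lipase, 6631 and 6886 CPM in control and exhausted. Pparg, the master factor of the lineage, had 129 and 154 CPM. Fabp4, the fatty acid binding protein of fat cells, was 2.07-fold higher (1.97 to 2.17). Cd36, a fatty acid transporter, was 2.47-fold higher (2.10 to 2.91), but its log2 ratio was -0.39 in cells of 150 to 300 Cxcl12 UMIs per 10000. Its share of thinned cells, 0.673% (0.477 to 0.923) of control cells and 1.66% (1.12 to 2.37) of exhausted cells, was below the 4.4% and 4.02% of Ptprc-positive cells. Car3, a carbonic anhydrase of fat cells, was 2.88-fold higher (2.68 to 3.08) at 31.9, 210.0 and 91.6 CPM in control, naive and exhausted, and the 1% of cells with most held 81.1% and 80.5% of its UMIs in control and exhausted. Cfd, adipsin, was 7.67-fold higher (5.77 to 10.3) at 1.29 and 9.92 CPM in control and exhausted. The 1% of cells with most held all of its UMIs in control and 89.7% in exhausted. Only 0.794% and 1.89% of cells had any UMI of Cfd, so in control this was fixed in advance. The adipocyte marker sum given above was almost wholly Fabp4 and Car3, so it is no separate value. Its other genes each stood at 1.14 CPM or less in control and exhausted. Cidec had 5 and 1 UMIs there, Plin1 32 and 18 and Gpd1 22 and 19. Without cells holding any UMI of 7 fat and osteoblast genes, an alternative chosen after seeing the data, the log2 ratio was 1.06 for Fabp4 (1.05 with them), 1.41 for Cd36 (1.30), 3.20 for Cfd (2.94) and 2.14 for Car3 (1.52).

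Of 31 measured BMP and TGF-beta genes 11 were at least 1.5-fold higher and none lower, with a median of 0.30. Among ligands, Inhba, the activin A chain, was 2.47-fold higher (2.16 to 2.82), Bmp4 had 237 CPM in control and 336 in exhausted, with 227 in naive, 170.0 in the uninjured aged library and 119 in aged-injury, and Bmp6 760.5 and 611 CPM in control and exhausted. Among secreted antagonists, Nog was 2.36-fold higher (2.00 to 2.78) and Bmper 2.34-fold higher (2.09 to 2.62). Nog had log2 ratios of 0.03, 1.56 and 2.60 in cells of low, middle and high Cxcl12, so its difference depends on the range. Fst, which binds activin, had 459 and 603 CPM, and Grem1, another antagonist, 1634 and 1790 CPM. Among direct target genes, Id1 was 2.30-fold higher (2.09 to 2.52) at 19.9, 42.3 and 45.7 CPM in control, naive and exhausted, Id2 1.66-fold higher (1.58 to 1.75), Id3 1.37-fold higher (1.35 to 1.40) and Smad6 1.57-fold higher (1.48 to 1.66). Receptors Bmpr1a and Acvr1 had log2 ratios of -0.07 and 0.11.

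In the WNT list 6 of 16 members were higher and 2 lower, with a median of 0.37. The noncanonical ligands Wnt5a and Wnt11 were 2.11-fold higher (1.85 to 2.41) and 2.23-fold higher (1.99 to 2.50). Rspo3, an amplifier of WNT signalling, was 1.97-fold higher (1.91 to 2.04) at 177, 333 and 349.8 CPM in control, naive and exhausted, while Rspo2 had 221 and 209 CPM in control and exhausted. The antagonist Sfrp1 was 1.56-fold higher (1.52 to 1.61), beside Sfrp2 above. Lgr5 was 2.05-fold higher (1.77 to 2.38) and Lgr4, a related receptor of R-spondins, 1.70-fold lower (1.54 to 1.87). Tcf7, a transcription factor of the pathway, was 2.09-fold lower (1.59 to 2.79) at 7.40 and 3.55 CPM in control and exhausted. In the Notch list of 10, the ligand Jag1 was 1.59-fold higher (1.44 to 1.74) and the target Hes1 1.84-fold lower (1.79 to 1.90), at 506, 194 and 274 CPM in control, naive and exhausted.

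Binding proteins of insulin-like growth factors stood on opposite sides of control. Igfbp5 had 32863 CPM in control and 21275 in exhausted, with 16404 in naive, 34295 in the uninjured aged library and 18827 in aged-injury, 1.54-fold lower (1.54 to 1.55) in exhausted. Igfbp4 had 4976 CPM in control and 9148 in exhausted, with 8918 in naive, 5102 in the uninjured aged library and 4612 in aged-injury, 1.84-fold higher (1.83 to 1.85), while aged-injury lay below the aged library. Igfbp3 was 1.96-fold lower (1.90 to 2.02), and the ligand Igf1 had 680.4 and 800.4 CPM in control and exhausted. Per cell of 2000 UMIs, Igfbp5 had medians of 59, 28 and 37 UMIs and Igfbp4 of 9, 17 and 16 in control, naive and exhausted. The list had 2 of 11 members higher and 2 lower.

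Vessel and basement membrane lists had members on both sides of control. Of 19 vessel growth factors 2 were higher and 3 lower, with a median of -0.12. Angpt2, which loosens vessels, was 2.58-fold lower (2.40 to 2.78) at 126, 39.7 and 48.8 CPM in control, naive and exhausted, Pgf, a relative of VEGF, 2.09-fold lower (1.86 to 2.35), and Ptn is given above. Hgf was 1.98-fold higher (1.78 to 2.20), and Vegfa and Vegfc had 651 and 748 CPM and 207 and 247 CPM. Of 15 basement membrane genes 2 were higher, Npnt and Col18a1, and 2 lower, Sparcl1 and Lama5, with a median of 0.06. The main type IV collagen genes Col4a1 and Col4a2 had log2 ratios of 0.05 and 0.12. Among 21 proteases and inhibitors, Timp3 was 2.75-fold lower (2.50 to 3.03) and Serpine2 1.66-fold lower (1.64 to 1.68), while Mmp13, Adamts12 and Timp1 were the 3 higher members.

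The monocyte chemokines Ccl2 and Ccl7 were lower and the neutrophil chemokine Cxcl5 higher. Ccl2 had 162 CPM in control and 106 in exhausted, with 64.4 in naive, 392 in the uninjured aged library and 276 in aged-injury, 1.53-fold lower (1.45 to 1.61) in exhausted, and Ccl7, a monocyte attractant of the same cluster, was 1.59-fold lower (1.48 to 1.72). The interferon-induced Cxcl9 was 2.28-fold lower (2.19 to 2.39), with 45.4% and 56.4% of its UMIs in 1% of cells of control and exhausted. Cxcl1, a neutrophil attractant, had 137 CPM in control and 195 in exhausted, with 85.5 in naive, 367 in the uninjured aged library and 219 in aged-injury, 1.42-fold higher (1.37 to 1.49), and Cxcl5, another, was 2.05-fold higher (1.71 to 2.45) from 5.87 and 12 CPM. Cxcl13 (8.23 and 3.43 CPM) and Cxcl14 completed the 5 lower members, and Lif was the other higher one.

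Genes of NF-kappa-B and its feedback loop stood close to control as a group, with none of 18 higher, 1 lower and a median of -0.03. Nfkbia, the inhibitor that the factor induces, had 678 CPM in control, 389 in naive and 624 in exhausted, and Tnfaip3 81.7 CPM in control, 60.7 in naive and 121 in exhausted. Immediate early genes, which respond within minutes to many stimuli including cell isolation, had 2 of 25 higher, 1 lower and a median of 0.01. Fos had 8735 CPM in control and 6602 in exhausted, with 4376 in naive, 7355 in the uninjured aged library and 5966 in aged-injury and Egr1 4770 CPM in control and 3268 in exhausted, with 2488 in naive, 4443 in the uninjured aged library and 3473 in aged-injury. Their log2 ratios were -0.40 and -0.55, while Jun and Junb had log2 ratios of 0.17 and -0.21. Fosl1 and Nr4a2 were 2.40-fold higher (2.14 to 2.68) and 2.28-fold higher (2.08 to 2.50).

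Interferon response genes had 2 of 34 higher, 4 lower and a median of 0.00. Ifitm1, an antiviral membrane protein, was 3.47-fold lower (3.13 to 3.85) at 84.6, 21.2 and 24.4 CPM in control, naive and exhausted. Ifit1 and Ifit3 were the higher members. The antigen presentation list had 3 of 21 higher, 1 lower and a median of -0.02, with class I genes H2-K1 and H2-D1 at log2 ratios of 0.01 and 0.02. The 3 higher members were of class II: Cd74 was 2.65-fold higher (2.36 to 2.99), H2-Aa 2.42-fold higher (2.07 to 2.83) and H2-Ab1 2.03-fold higher (1.71 to 2.39). In Ptprc-positive cells Cd74 stood at 1342 and 3298 CPM in control and exhausted, so it was higher there too. The log2 ratio of Cd74 lay between 0.77 and 1.76 under the 17 alternatives given below. Among these was a count of only the cells with 0 UMIs of every leukocyte marker. The part of blood cell RNA in these values was not tested otherwise.

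Complement and acute phase genes had a median below that of all genes, with 3 of 21 higher, 6 lower and a median of -0.31. Cfi, the protease that inactivates complement C3b, had 9.40 CPM in control and 0.300 in exhausted, with 0.314 in naive, 0.643 in the uninjured aged library and 0.159 in aged-injury, 31.3-fold lower (13.3 to 96.7) in exhausted, which held 5 UMIs of it. Control stood apart from all other libraries for Cfi. C3, the central component, had 300.5 CPM in control, 229.7 in naive and 159.8 in exhausted, 1.88-fold lower (1.80 to 1.96), and Cp, ceruloplasmin, was 1.58-fold lower (1.55 to 1.60). Saa3, an acute phase protein, was 21.2-fold higher (16.3 to 27.9) and A2m, a protease inhibitor, 57.5-fold higher (29.5 to 128) from 9 UMIs in control. In exhausted the 1% of cells with most held 91.6% of Saa3 and 52.8% of A2m UMIs. Saa3 was also present in Ptprc-positive cells, at 1.61 and 128 CPM in control and exhausted.

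The inducible heat shock genes Hspa1b, Hspa1a and Hspb1 were lower in exhausted and naive than in the other 3 libraries. Hspa1b and Hspa1a encode the inducible form of HSP70. Hspa1b had 140.0 CPM in control and 29.3 in exhausted, with 51.0 in naive, 271 in the uninjured aged library and 308 in aged-injury, 4.78-fold lower (4.37 to 5.25) in exhausted, and Hspa1a had 96.9 CPM in control and 27.2 in exhausted, with 32.9 in naive, 168 in the uninjured aged library and 219 in aged-injury, 3.57-fold lower (3.24 to 3.93). The 2 genes are near-identical copies, and reads can be assigned to either, so their separate values are uncertain. Hspb1, a small heat shock protein, had 147 CPM in control and 49.0 in exhausted, with 46.0 in naive, 171 in the uninjured aged library and 151 in aged-injury, 3.0-fold lower (2.79 to 3.23), and Hsp90aa1, the inducible HSP90, was 1.58-fold lower (1.55 to 1.62). These were the 4 lower members of 23, none was higher, and the median was -0.13. The constitutive Hspa8 and the endoplasmic reticulum chaperone Hspa5 had log2 ratios of -0.09 and 0.10. The 1% of cells with most held 33.6% and 48.0% of Hspa1b UMIs in control and exhausted.

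Promoter sequences of these 3 genes are shown because heat shock genes are known to be switched on through heat shock elements, inverted repeats of GAA. RefSeq sequences of build GRCm38.p6 were read, the 250 bases before the annotated start, and capitals mark each match to GAANNTTC, which reads the same on both strands. Hspa1a lies at chr17:34972157-34972406 and Hspa1b at chr17:34959239-34959488, both on the minus strand, and Hspb1 at chr5:135887669-135887918 on the plus strand. The 250 bases of Hspa1a and Hspa1b matched at 247 positions, and each had its match starting 104 bases before the start.
Hspa1a: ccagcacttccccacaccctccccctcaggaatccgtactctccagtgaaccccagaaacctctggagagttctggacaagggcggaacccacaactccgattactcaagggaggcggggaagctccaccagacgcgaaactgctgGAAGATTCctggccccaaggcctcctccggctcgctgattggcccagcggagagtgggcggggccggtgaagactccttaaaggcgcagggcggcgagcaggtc
Hspa1b: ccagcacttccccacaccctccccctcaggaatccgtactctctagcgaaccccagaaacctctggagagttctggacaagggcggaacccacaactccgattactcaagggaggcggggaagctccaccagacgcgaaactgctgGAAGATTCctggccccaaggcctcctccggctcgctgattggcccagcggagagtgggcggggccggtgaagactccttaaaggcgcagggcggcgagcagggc
Hspb1: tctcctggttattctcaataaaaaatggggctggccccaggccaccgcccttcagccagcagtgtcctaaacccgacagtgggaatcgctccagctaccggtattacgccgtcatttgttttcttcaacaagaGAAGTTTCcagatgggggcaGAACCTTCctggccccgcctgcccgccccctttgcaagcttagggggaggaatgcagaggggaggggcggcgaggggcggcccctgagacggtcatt
Of 19 heat shock and chaperone genes with an entry, 6 (31.6%) held the motif, against 7.73% of 27025 genes. Hspa1a and Hspa1b, nearly the same sequence, are counted separately among these 6. Dnaja1, Hspd1 and Hspe1 held it as well, and their log2 ratios were 0.25, 0.01 and -0.27, on both sides of 0. The motif was chosen after the values were seen, and a match is no measured binding site.

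For Mmp13, the higher collagenase, the same window held a match to the AP-1 motif TGANTCA, the site of FOS and JUN proteins, found in 7.82% of genes on either strand. It lay at chr9:7272264-7272513 on the plus strand, with the match in capitals 35 bases before the start.
Mmp13: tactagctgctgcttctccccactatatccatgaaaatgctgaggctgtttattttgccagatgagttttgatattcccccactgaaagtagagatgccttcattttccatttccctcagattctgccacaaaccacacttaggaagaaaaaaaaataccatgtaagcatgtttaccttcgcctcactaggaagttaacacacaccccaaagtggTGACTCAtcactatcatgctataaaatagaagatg
None of the 20 immediate early genes with an entry held that motif. It was in 2 of 15 protease and inhibitor genes (Mmp13 and Mmp3) and in 1 of 20 matrix genes. It was in 4 of 15 NF-kappa-B, 3 of 14 chemokine and 2 of 19 heat shock genes. Mmp13 was chosen with its value known, and a match is no measured binding site. Other motifs searched were CRE (TGACGTCA, 1.77% of genes), the CArG box (1.62%) and kappa-B (8.23%), the last in 8 of 15 NF-kappa-B genes and in 5 of 14 chemokine genes (Cxcl1, Cxcl2, Cxcl10, Il6 and Lif). It was also in 5 of 20 immediate early, 5 of 19 heat shock and 5 of 20 matrix genes. All were searched on both strands.

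Glucocorticoid response genes had 4 of 18 members lower, none higher and a median of -0.18, where naive had a median of 0.15 against the same control. Hsd11b1, which regenerates active glucocorticoid, was 3.78-fold lower (3.08 to 4.68) at 22.5, 11.7 and 5.95 CPM in control, naive and exhausted. Zbtb16 had 54.6 CPM in control, 93.7 in naive and 33.5 in exhausted, above control in naive and below it in exhausted. Cdkn1a, the p21 cell cycle inhibitor, had 349 CPM in control and 212 in exhausted, with 339 in naive, 471 in the uninjured aged library and 249 in aged-injury and was 1.65-fold lower (1.59 to 1.71). In the list of 18 arrest and p53 genes only Cdkn1a and the imprinted inhibitor Cdkn1c (1.81-fold lower (1.72 to 1.92)) passed 1.5-fold, both lower.

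The remaining lists held few members past 1.5-fold or members on both sides. Among 14 clock genes 3 were higher and 2 lower, Per2 being 1.62-fold higher (1.47 to 1.78) and Hlf, an output factor, 2.21-fold lower (1.92 to 2.55). Of 11 imprinted growth genes H19 was higher, Cdkn1c and Peg3 (2.05-fold lower (1.76 to 2.40)) were lower, and the median was -0.29. Of 12 measured cell division genes Cdk1 was higher, at 1.75 and 5.05 CPM in control and exhausted, and Mki67 lower, at 12.7 and 5.29 CPM. Of 14 synaptic adhesion and channel genes 5 were higher and 4 lower. Gria3, a glutamate receptor subunit, was 4.85-fold higher (3.75 to 6.30), Cbln2, a secreted synapse organiser, 2.03-fold higher (1.86 to 2.22), and Cntn1, a neural adhesion molecule, 2.65-fold lower (2.34 to 3.02).

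Exhausted and naive were then compared directly, since both were sampled 2 weeks after the last surgery and differ in the earlier surgery at 9 weeks. Both share the control library above, so their ratios to it are not independent. Of 10331 genes measured in this pair, 147 (1.42%) were at least 1.5-fold higher in exhausted and 371 (3.59%) at least 1.5-fold lower, with a median log2 ratio of -0.06 over the genes measured against control. Of those 10299 genes 4957 had an exhausted level between control and naive. Of the 543 measured genes of the lists and the named genes, 29 were at least 1.5-fold higher in exhausted than naive and 48 at least 1.5-fold lower. The named genes in that set had been chosen by their ratio of exhausted over control.

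Several matrix, bone and fat genes that stood above control in both were lower in exhausted than in naive. By list, the median log2 ratio of exhausted over naive was -0.10 for fibrillar matrix, -0.31 for osteoblast and -0.23 for adipocyte genes, beside -0.06 for all. Col1a1 and Col3a1 went the other way, with log2 ratios of 0.22 and 0.28. The ratio of exhausted over naive was 0.519 (0.487 to 0.554) for Fn1, 0.643 (0.608 to 0.680) for Npnt, 0.622 (0.602 to 0.643) for Alpl and 0.601 (0.542 to 0.665) for Sp7. It was 0.436 (0.411 to 0.463) for Car3, 0.535 (0.510 to 0.562) for Spp1 and 0.609 (0.571 to 0.650) for Fbn2. Some genes that stood below control in both were closer to control in exhausted, namely Dcn at 2.01 (1.90 to 2.13), Fos at 1.51 (1.5 to 1.52) and Ccl2 at 1.65 (1.53 to 1.77).

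Other genes stood further from control in exhausted than in naive. Among lower genes the ratio to naive was 0.548 (0.489 to 0.613) for Mgp, 0.587 (0.524 to 0.656) for Timp3, 0.508 (0.397 to 0.646) for Hsd11b1 and 0.574 (0.514 to 0.641) for Hspa1b. Cdkn1a was at 0.626 (0.600 to 0.652), and Itih5, a hyaluronan-binding inhibitor, at 0.466 (0.431 to 0.504) with 102, 114 and 53.4 CPM in control, naive and exhausted. Among higher genes Comp was at 1.77 (1.62 to 1.93) and Cbln2 at 2.40 (2.13 to 2.72). Saa3 and A2m were at 2.99 (2.49 to 3.60) and 5.37 (3.69 to 8.03), and Cd74 at 2.77 (2.35 to 3.26). Cxcl1 and Tnfaip3 stood below control in naive and above it in exhausted, with ratios of 2.28 (2.15 to 2.42) and 2.00 (1.86 to 2.15). Ptprc-positive cells were 19% of naive and 43.3% of exhausted cells, and their part in these values was not tested.

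The difference from control was then read within ranges of Cxcl12, because naive members had less of it. From 150 to 300 UMIs per 10000 there were 1151 control and 579 exhausted cells, from 300 to 400 there were 2102 and 624, and above 400 there were 2411 and 703. For Lepr the log2 ratios in these ranges were -0.69, -0.77 and -0.72, for Dcn -1.5, -1.76 and -1.55 and for Igfbp4 0.89, 0.94 and 0.91. Col1a1 had 1.58, 1.55 and 1.31, Col3a1 1.47, 1.56 and 1.71 and Sfrp2 2.41, 2.72 and 2.31. For these 6 genes the 3 values differed by less than 0.5.

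Other genes differed more between ranges. Npnt had 1.06, 2.59 and 2.27, and Col8a2 is given above. Alpl had log2 ratios of 0.48, 1.2 and 1.44, Id1 0.44, 1.36 and 1.48 and Comp 1.13, 2.69 and 3.29, each larger in the upper ranges. Fabp4 had 0.15, 1.03 and 1.59, Car3 -0.30, 2.08 and 2.57 and Cd36 -0.39, 1.57 and 2.35, below or near control in the lowest range. H19 had 1.48, 2.29 and -0.09. In control Car3 stood at 85.5, 26.6 and 14.5 CPM in the 3 ranges and in exhausted at 69.4, 112 and 85.9, so that control, not exhausted, differed most between ranges.

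**Figure D5:**
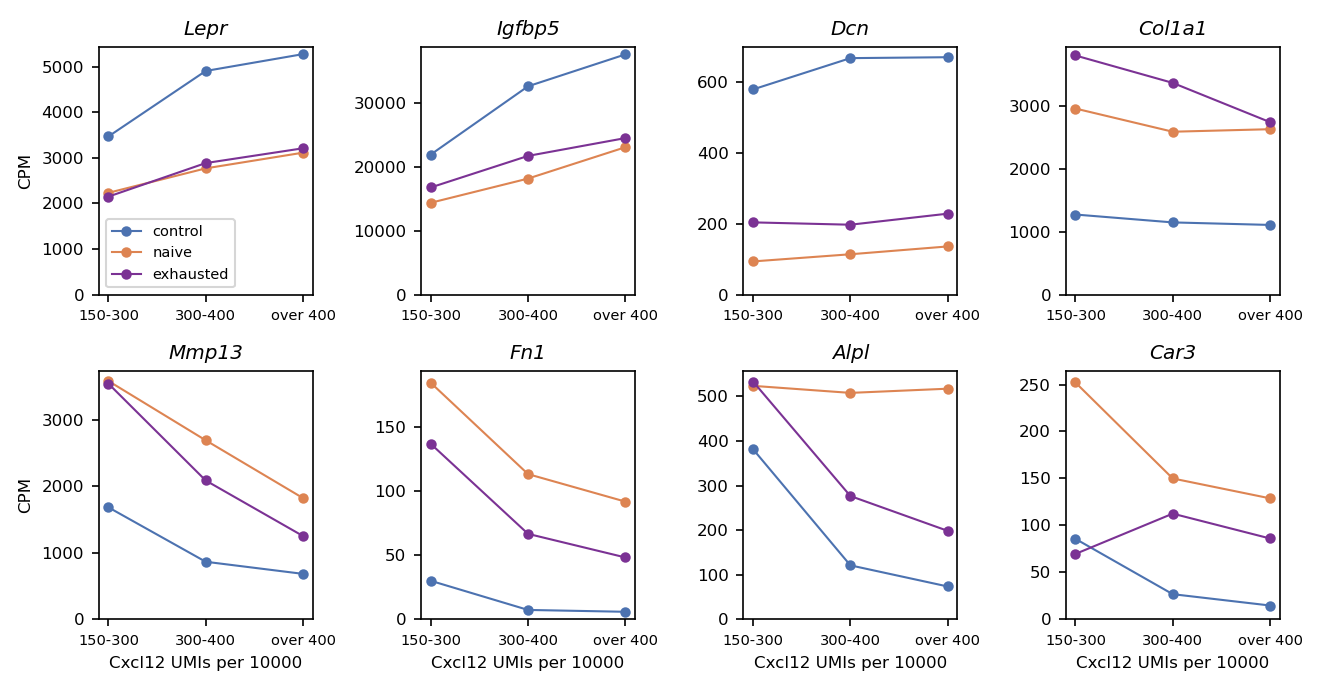
CPM (vertical axis, from 0) of 8 genes in reticular cells grouped by Cxcl12 UMIs per 10000 (horizontal axis) in control, naive and exhausted, 1 library each. Exhausted Lepr lies below control and exhausted Col1a1 above it in all 3 groups, while Car3 crosses control in the lowest.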

How the data were processed

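The 5 libraries, 1 per group, were made on the BD Rhapsody platform and deposited as raw, whole-number UMI counts, with genes against cells in each matrix. The authors' notes name GRCm39 and Seurat 5.1; the sources used here do not give the aligner, counter or cell calling. Libraries were joined by gene symbol, and a symbol that a library does not list was taken as 0 there. No doublet caller was run, and the labels do not say that doublets were removed. Counts were summed over reticular cells with Python 3.11.15, numpy 2.4.6 and scipy 1.17.1. Levels have exact Poisson and shares exact Clopper-Pearson 95% intervals. Ratios have exact conditional binomial intervals, and a count of 0 was set to 3. With 1 library a group there is no test, and a difference has no replicate check. The ratio script was tested on simulated data.

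The members and gene lists were chosen with earlier results of these data known. Beyond list members, the text names the 12 genes furthest each way with at least 20 CPM in 1 library, 50 UMIs in the higher, a 2-fold ratio whose interval leaves out 1 and a lower level in Ptprc-positive cells. Marker genes of other cells were not named, nor were predicted, ribosomal protein or mitochondrial genes. Promoters were cut to the 250 bases before the start. Alternatives were scaling (TMM of edgeR 4.0.16, median of ratios), filters, cell limits (among them 0 UMIs of every leukocyte marker), thinning and denominators.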

Additional observations from a re-analysis of the deposited data

How the results depend on the processing

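Of 103 genes followed, 97 kept the sign of their log2 ratio under all 17 alternatives, and of 28 lists 14 did. The numbers of genes 2-fold higher and lower were 5154 and 1765 with no filter on CPM, where genes of a few UMIs enter and a count of 0 is set to 3, and 60 and 61 at 20 CPM, where fewer genes are measured. In cells of 150 to 300 Cxcl12 UMIs per 10000 292 genes were lower, and the cause was not tested. Log2 values changed sign in that range for proteases (-0.0373), osteoblast genes (-0.0634), vessel factors (0.0259), Ebf3 (0.0131), Spp1 (-0.0813), Car3 (-0.30) and Cd36 (-0.39). With no filter they did so for chemokines (0.0550), synaptic genes (-0.32) and surface markers (-0.16), and above 400 Cxcl12 UMIs for H19 (-0.0884). The genes and lists named so far had counting intervals that left out 0, for lists by the median of their members' limits. Runx2 and the NF-kappa-B, immediate early, clock, interferon, antigen presentation, arrest, cell division and Notch lists also changed sign. The immediate early and cell division lists kept theirs in 9 of 17 alternatives. Reticular cells were 63.9% of control and 33.0% of exhausted cells at 100 Cxcl12 UMIs, 48.8% and 21.1% at 300 and 75.6% and 53.6% of cells without Ptprc, by construction of the limits. Control stood at 64.8% under a mitochondrial limit of 10%. Scaling by TMM or median of ratios shifted all log2 ratios by -0.02. The ranges of Cxcl12, the limit on immediate early UMIs and the removal of cells with fat or osteoblast UMIs were chosen after seeing the data. No paired analysis was possible because each group is 1 library and no test was made. Depth limits genes of low level most: for Dmp1, at 1.74 CPM in exhausted, the ratio's interval ran from 2.29 to 5.08-fold lower.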

Other observations

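Reticular cells differed within each library in immediate early transcripts. After thinning to 2000 UMIs, cells with fewer than 10 UMIs of the immediate early list were 13.0% (12.2 to 13.9) of control, 34.2% (32.1 to 36.4) of naive and 20.2% (18.3 to 22.1) of exhausted cells, with a limit chosen after the distribution was seen. In the full counts these cells had medians of 5574 UMIs in control and 3522 in exhausted, against 9523 and 9604.5 in the other cells. Their median mitochondrial shares were 7.74% and 8.6%, against 5.88% and 6.06%. The matrix list had a median log2 ratio of exhausted over control of 0.68 in cells with few and 0.61 in cells with many such UMIs. For osteoblast genes the medians were -0.12 and 0.58, for BMP and TGF-beta genes 0.06 and 0.32, and for all measured genes -0.06 and 0.06. Within the cells with few, Igfbp4 stood at 7109 CPM in control and 13894 in exhausted, Col1a1 at 1446 and 4359, Lepr at 5040 and 3199 and Dcn at 687 and 236. Hspa1b stood at 28.3 and 8.07 CPM in these cells and at 151 and 31.7 in the others.

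UMIs of EGFP, a transgene that the labels do not name, were found in reticular cells of 4 libraries, with 48 in control and 5 in exhausted, 13 in naive and 460 in aged-injury. The aged library had 0. In Ptprc-positive cells EGFP stood at 24.9 CPM in control and 0.344 in exhausted, with 3.91 in naive and 24.8 in aged-injury.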
